A study of Caenorhabditis elegans with 36 samples.

Results

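Nuclear hormone receptors of Caenorhabditis elegans were taken as every gene whose array annotation gave the symbol nhr followed by a number, nhr-25 left out. The array held probes for 251 such genes among 16378 named genes. The label was checked against a current RefSeq annotation, in which 238 of the 251 are protein-coding genes and 12 are pseudogenes. The fractions compared were the immunoprecipitate (IP) of AIN-2::GFP and the input, which is total RNA of the same lysate. Both came from whole animals at the stages Egg, L1, L2, L3 and L4, with 4, 4, 3, 4 and 3 lysates. Every group carried a single-copy integrated AIN-2::GFP transgene, was grown on HB101 bacteria at 20 °C, and received no other treatment named in the labels. Eggs were frozen after purification, and feeding lasted 4 hours before L1 larvae were taken, 21 for L2, 30 for L3 and 42 for L4. More than 80% of the animals of a collection had to be at the stated stage. No IP of untagged animals was used here, so mRNA held by the beads alone cannot be told apart from mRNA held through AIN-2.

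AIN-2 is a GW182-family protein that joins Argonaute proteins loaded with microRNAs, and the mRNAs recovered with it are taken to be those held by the silencing complex. Nuclear hormone receptors are transcription factors with a zinc finger domain that binds DNA and a domain that binds small lipophilic ligands. The family is much larger in nematodes than in insects or vertebrates. Most of its nematode members descend from an ancestor related to the vertebrate receptor HNF4, and a small number have a direct counterpart outside nematodes. Receptors of known function act in lipid metabolism, molting, dauer formation, diet responses and the development of the epidermis, gonad and nervous system.

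Levels are log2 of the normalized spot intensity, and the IP is set against the input as a log2 difference within each lysate. Testing required both values in 2 or more lysates of each stage, which 158 of the 251 receptor genes met. The 93 that were not tested were dim. Their median number of IPs above background was 3 of 18, against 12 of 18 for the tested genes, and in the inputs the medians were 4 and 16. Of the tested receptors, 22 were above background in all 36 samples. Above background means over 3 times the noise of that sample. From 31% to 70.4% of all spots of an IP and from 51.3% to 71.4% of those of an input passed this. The IPs of L3 replicate 1 and L4 replicate 3 were the dimmest, with 31% and 33.5%. Summed sperm markers (18 genes, linear scale) lay between 61.5 and 479 in L4 inputs and between 0.904 and 21.1 in the inputs of the other stages.

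More of the tested receptor mRNAs were called higher in the IP than lower. Over the mean of the 5 stages, limma with Benjamini-Hochberg adjusted p under 0.05 called 44 of the 158 tested receptors higher in the IP and 15 lower. These shares are 27.8% and 9.49%, beside a background of 19.2% higher and 25.1% lower among the 15732 genes and probes tested. The median difference of the 158 receptors was 0.24, beside -0.09 over everything tested, and 98 of the 158 lay above 0, beside 7211 of 15732. Of the 44, 29 were more than 2-fold higher and 13 were higher in every lysate with both values. Of the 15, 6 were more than 2-fold lower. Fold size and sign per lysate were not counted over everything tested, so no background stands beside these counts.

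**Figure D1:**
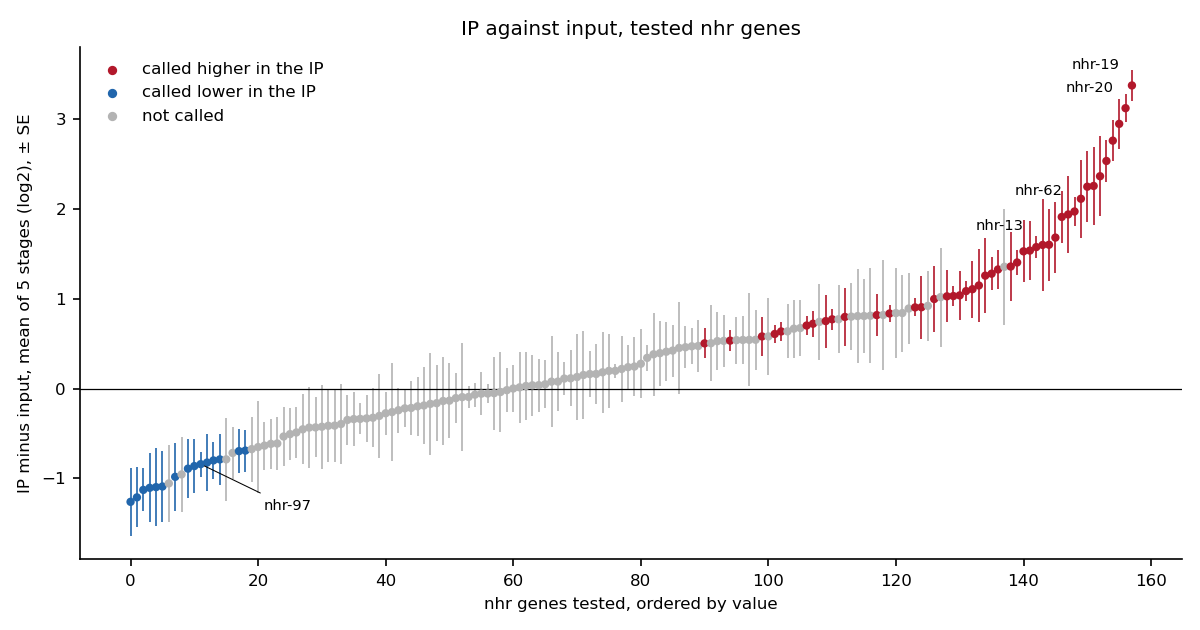
The IP minus input difference (log2, mean of the 5 stages, with its standard error) of the 158 tested receptor genes, ordered by value and coloured by call. The 44 higher calls lie between 0.50 and 3.38 and the 15 lower calls between -1.26 and -0.69.

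The balance of calls depended on how the arrays were scaled. With the values as deposited, 67 receptors were higher and 6 lower, beside 3966 and 3714 of the 15732 genes and probes tested. The median of everything tested then stood at 0.14, and that of the receptors at 0.55. With an offset of 0.1 before log2, all 251 receptors were tested. Their median was then 0.08, beside 0.02 over everything tested. Higher calls made up 74.6% of the receptor calls, and 91.8% with the values as deposited. Over everything tested they made up 43.3% and 51.6% of the calls. The lower count also moved with the lysates used. It was 8 without Egg replicate 2, without L1 replicate 2 or without L3 replicate 2. It was 9 without L2 replicate 2 or without L4 replicate 10, where 139 and 117 receptors were tested. Lower calls over everything tested were 3316 to 3690 in these fits, against 3946 with every lysate. The IP carried Cy5 in each lysate left out here. The count was 11 without L1 replicate 11, the other Cy5 lysate, and 11 to 18 without a Cy3 lysate. Why the count fell was not tested. The dye balance is uneven, since the IP carried Cy5 in 6 lysates and Cy3 in 12. The median receptor difference of a lysate ranged from 0.15 to 0.65 in the Cy5 lysates and from -0.03 to 0.76 in the Cy3 lysates. In the 12 lysates whose input title is spelled tot, 25 receptors were higher and 4 lower, of 101 that could be tested there. Of everything tested there, 1868 were higher and 2425 lower, of 11958.

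The receptors are a dim family, and the calls differed with brightness. The median level of everything tested, over IP and input, was -2.92. Of the 39 receptors brighter than that, 22 (56.4%) were higher in the IP and 3 (7.69%) lower, beside 29.4% and 36.6% of all brighter genes and probes. Among the 119 dimmer receptors, 22 (18.5%) were higher and 12 (10.1%) lower, beside 8.87% and 13.6% of all dimmer genes and probes. The 44 higher receptors were above background in a median of 16 of 18 IPs. The 15 lower receptors were above background in a median of 11 of 18 IPs. In the inputs these medians were 17.5 for the higher and 18 for the lower receptors. A lower call itself goes with a weaker IP, so the IP counts do not rank the genes by brightness.

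The receptors with the largest differences were led by nhr-19 (WBGene00003618) and nhr-20 (WBGene00003619), which ranked 70th and 100th of 15732. nhr-19 had IP levels with a lowest, median and highest value of -0.65, 1.84 and 3.81, against -4.93, -1.82 and -0.11 in the inputs. Its difference was 4.79, 3.89, 2.16 and 3.94 in Egg, 3.53, 3.93, 3.69 and 4.03 in L1, 3.37, 2.84 and 3.38 in L2, 3.61, 2.56, 2.97 and 3.41 in L3, and 2.67, 2.32 and 4.01 in L4. The IP exceeded the input in every lysate by at least 2.16, although the pooled ranges overlap because the level moved between stages and lysates. The fitted mean was 3.38 ± 0.17 (SE, n = 18 lysates), a 10.4-fold difference, with a limma adjusted p of 3.23e-12.

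nhr-20 had IP levels of -1.25, 0.55 and 1.83 (lowest, median, highest), against -3.94, -2.61 and -1.17 in the inputs. Its difference was 2.73, 3.21, 4.59 and 3.87 in Egg, 4.21, 3.14, 3.29 and 3.17 in L1, 2.69, 2.66 and 2.10 in L2, 2.60, 2.59, 2.52 and 3.08 in L3, and 3.48, 2.70 and 3.65 in L4. The fitted mean was 3.12 ± 0.15 (SE, n = 18 lysates; limma adjusted p = 2.34e-12). Both genes were called at each of the 5 stages, and the mean of the stages was called in each of the 32 other settings run, the fits that leave out a lysate included.

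The mRNA of nhr-116 was higher in the IP in 16 of 17 lysates, by 2.95 ± 0.28 (limma adjusted p = 3.98e-08). Its difference was -0.47, 1.46 and 1.99 in Egg, 2.78, 2.23, 2.24 and 4.13 in L1, 3.24, 3.14 and 3.23 in L2, 1.38, 3.5, 4.34 and 3.56 in L3, and 3.4, 5.1 and 3.97 in L4. Every larval value but the 1.38 of L3 exceeded those of Egg, and Egg was the stage at which nhr-116 was not called. nhr-163 was higher in 17 of 17 lysates, by 2.76 ± 0.23 (limma adjusted p = 7.47e-09). nhr-181 was higher in 16 of 16, by 2.54 ± 0.24 (limma adjusted p = 6.91e-08). nhr-172 and nhr-138 were higher in 18 of 18, by 1.40 ± 0.14 and 1.03 ± 0.11 (limma adjusted p = 5.36e-08 and 1.34e-07). nhr-138 was bright, with levels from 1.74 to 3.05 in the IPs, against 0.53 to 1.87 in the inputs. The inputs of nhr-163 and nhr-181 were above background in 9 and 12 of 18 samples, so the size of both ratios rests on dim denominators.

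**Figure D2:**
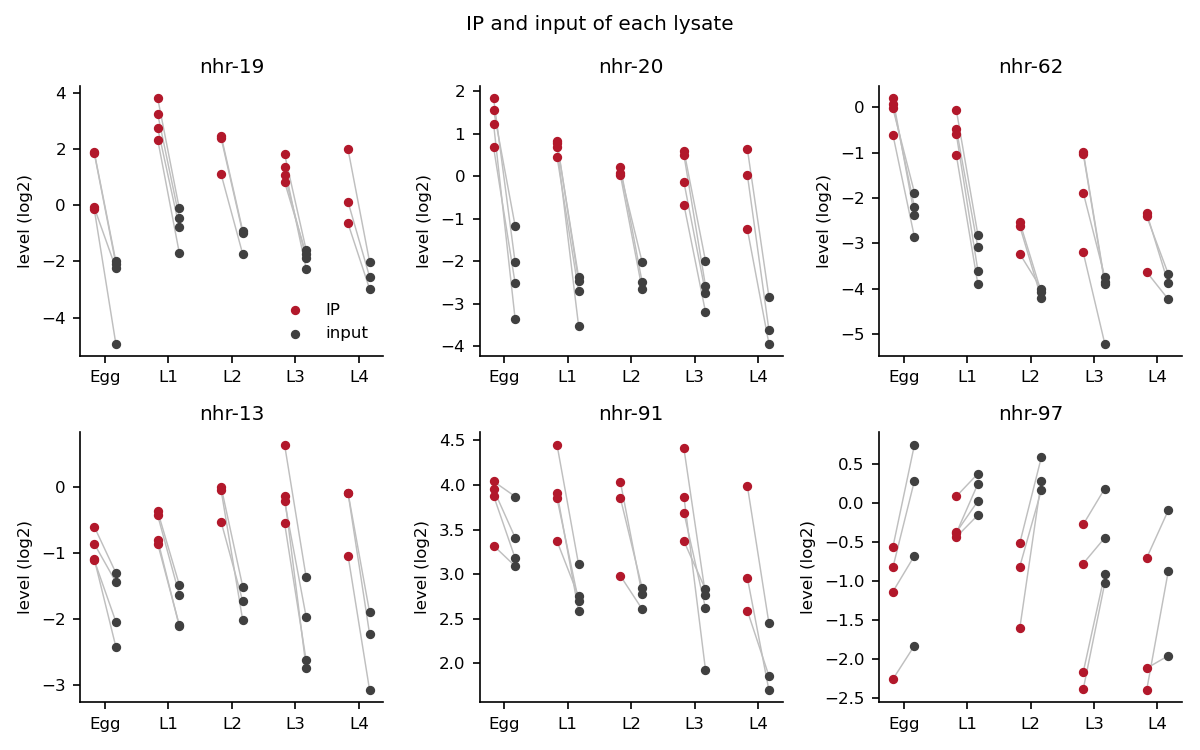
Level (log2) of 6 receptor mRNAs in the IP (red, left of each stage) and the input (dark, right), with a line joining the samples of a lysate. For nhr-19, nhr-20, nhr-62, nhr-13 and nhr-91 the IP lies above the input in 18 of 18 lysates, and for nhr-97 in 0 of 18.

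Receptors described in metabolism were the largest role group, with 12 tested and a median difference of 0.61. By limma 7 of them were higher in the IP and 0 lower (0 of the 12 were called lower at unadjusted p under 0.05 as well). This list and the gene lists below were chosen with earlier results of these data known, so their shares are descriptive. The background over everything tested was 19.2% higher and 25.1% lower, and 29.4% and 36.6% among the brighter genes and probes. Among the 158 tested receptors the shares were 27.8% and 9.49%, and among the 39 brighter receptors 56.4% and 7.69%. NHR-62 is an HNF4-like receptor needed for the longer life of worms under dietary restriction. Its mRNA had a difference of 2.28, 1.86, 2.58 and 2.26 in Egg, 2.63, 2.75, 3.02 and 2.85 in L1, 1.59, 0.77 and 1.55 in L2, 2.01, 2.87, 2.88 and 1.86 in L3, and 1.27, 0.61 and 1.55 in L4. The values of Egg, L1 and L3 all lay above those of L2 and L4. The fitted mean was 1.97 ± 0.17 (SE, n = 18; limma adjusted p = 5.38e-09).

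NHR-13 is a partner of NHR-49 in the control of fatty acid desaturases. The nhr-13 IP levels ranged from -1.11 to 0.64, and the input levels from -3.08 to -1.30. Among the 158 tested receptors nhr-13 was the 1 gene whose 18 IPs and 18 inputs did not overlap (not counted over everything tested). Its difference was 0.93, 0.58, 1.33 and 0.70 in Egg, 1.24, 1.2, 1.1 and 1.31 in L1, 1.2, 1.97 and 1.51 in L2, 1.75, 2.60, 2.08 and 2.01 in L3, and 2.04, 2.14 and 1.81 in L4. The fitted mean was 1.58 ± 0.12 (limma adjusted p = 1.81e-09), with 2.14 in L3 and 0.92 in Egg at the ends of the stage values.

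The other metabolic receptors called were smaller in size or less even. nhr-57, a gene induced by the hypoxia factor HIF-1, was higher by 1.11 ± 0.32 in 16 of 18 lysates (limma adjusted p = 0.00747), with -3.21 in L3 replicate 1. nhr-28 was higher by 1.09 ± 0.11 in 18 of 18 lysates. nhr-45, a gene of the response to mitochondrial stress, was higher by 0.72 ± 0.15 in 16 of 18. The HNF4-like receptors nhr-64 and nhr-69 stood near the threshold, at 0.91 ± 0.35 and 0.50 ± 0.17, and were called in 14 of 28 and 25 of 32 other settings. The other 5 receptors of the group were not called. nhr-10 and nhr-68, regulators of propionate breakdown, had differences of -0.22 ± 0.21 and 0.50 ± 0.42. nhr-86, a sensor of a pathogen metabolite, had 0.11 ± 0.18, and nhr-79 had 0.04 ± 0.34. nhr-114, which protects the germ line on some bacterial diets, had -0.49 ± 0.28. nhr-8, nhr-49 and nhr-80 were not analysed here.

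Of the receptors with a counterpart outside nematodes, 5 were tested, with a median of 0.70. In the IP 4 were higher and 1 was lower, beside the same background of 19.2% higher and 25.1% lower. Among the 39 brighter receptors 56.4% were higher and 7.69% lower. nhr-91, the counterpart of vertebrate germ cell nuclear factor, had a difference of 0.54, 0.17, 0.70 and 0.23 in Egg, 0.62, 1.34, 1.31 and 1.15 in L1, 1.24, 0.37 and 0.99 in L2, 1.07, 0.54, 1.94 and 1.64 in L3, and 1.27, 0.73 and 1.55 in L4. It was positive in every lysate, with a fitted mean of 0.90 ± 0.10 (limma adjusted p = 2.97e-07). nhr-6 encodes the NR4A receptor that shapes the spermatheca. Its IP levels ranged from 3.49 to 5.32 and its input levels from 2.38 to 3.80. The difference was 0.70 ± 0.10 and was positive in 17 of 18 lysates (limma adjusted p = 8.64e-06). nhr-67, the counterpart of tailless and a regulator of the anchor cell and of neurons, was higher by 0.61 ± 0.10 in 18 of 18 lysates (limma adjusted p = 3.18e-05). nhr-111, a relative of the tailless group, was dimmer, with IP levels from -4.25 to -0.84, against -4.71 to -2.04 in the inputs. It was higher by 0.82 ± 0.24 in 17 of 18 (limma adjusted p = 0.00805).

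The lower gene of that group was nhr-41, the counterpart of vertebrate TR2 and TR4. Its difference was -4.46, -1.27, -2.50 and -0.44 in Egg, against values between -1.93 and 0.61 in the larval lysates. The fitted mean was -0.83 ± 0.32 (limma adjusted p = 0.0419), and nhr-41 was called in 15 of 31 other settings. The Egg value alone was -2.26 ± 0.62 (limma adjusted p = 0.0126), with the IP above background in 2 of 4 lysates. Without Egg replicate 1 it was -1.51 (limma adjusted p = 0.0906).

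The receptors described in development shared nhr-6, nhr-67 and nhr-91 with that group. Of 8 tested, 5 were higher and 0 lower by limma (0 of the 8 were called lower at unadjusted p under 0.05 as well; the median was 0.67). The background was again 19.2% higher and 25.1% lower, beside 56.4% and 7.69% among the 39 brighter receptors. The 3 shared genes, each called higher, are counted in both groups. nhr-60, which acts in epidermal seam cells, had the largest difference among them, 1.91 ± 0.29 in 15 of 17 lysates (limma adjusted p = 2.21e-05). Its values were -0.38, 2.03, -1.37 and 1.90 in Egg, so Egg lysates fell on both sides of 0. nhr-1 was higher by 0.64 ± 0.11 in 16 of 18. nhr-2, a gene switched on in the early embryo, and nhr-73 and nhr-74 were not called at 0.74 ± 0.42, -0.61 ± 0.30 and -0.33 ± 0.33. nhr-23 and nhr-85 were not analysed here.

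**Figure D3:**
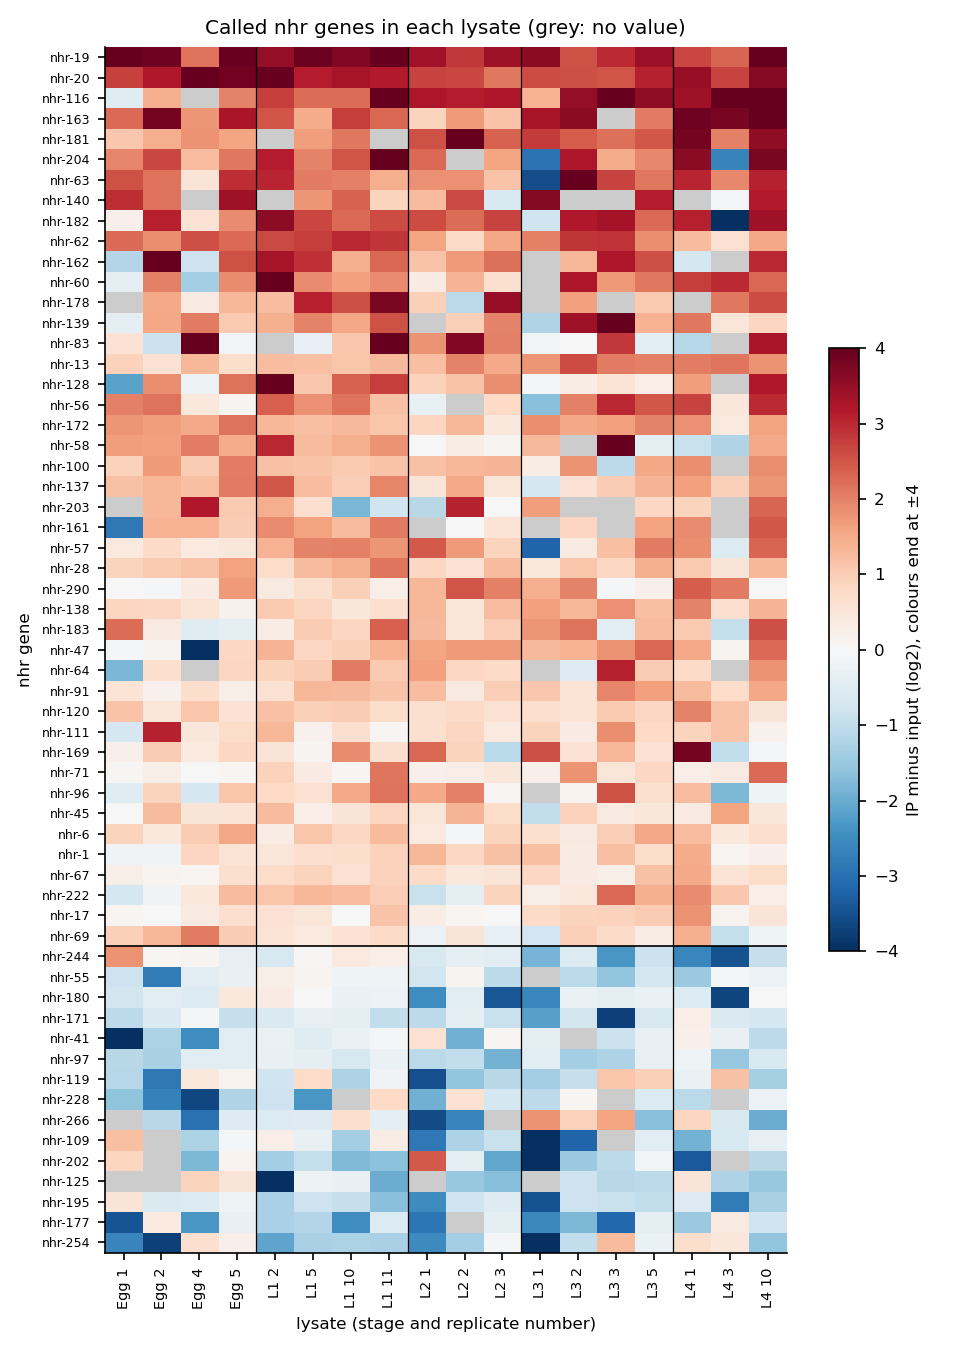
IP minus input (log2) in each of the 18 lysates for the 59 receptor genes called over the mean of the 5 stages, ordered by the fitted mean. Grey marks a lysate without both values, and the horizontal line separates the 44 higher from the 15 lower genes. The lower genes have paler and more mixed rows than the leading higher genes.

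Few receptor mRNAs were called lower in the IP. nhr-97 was the 1 lower gene with the same sign in every lysate and the 1 lower gene whose IP was above background in 18 of 18. Its IP levels ranged from -2.40 to 0.08, against -1.96 to 0.74 in the inputs. The difference was -1.11, -1.31, -0.42 and -0.45 in Egg, -0.29, -0.40, -0.64 and -0.28 in L1, -1.09, -0.98 and -1.89 in L2, -0.46, -1.36, -1.25 and -0.33 in L3, and -0.16, -1.52 and -0.61 in L4. The fitted mean was -0.84 ± 0.14 (SE, n = 18; limma adjusted p = 4.82e-05), and the call of the mean held in 32 of 32 other settings. By stage nhr-97 was called lower in Egg, L2 and L3, at -0.84 ± 0.29, -1.33 ± 0.32 and -0.87 ± 0.29 (limma adjusted p = 0.0394, 0.00702 and 0.0357). The Egg call held in 22 of 32 other settings. It was lost without Egg replicate 1, where the value was -0.75, and without Egg replicate 2, where it was -0.63 (limma adjusted p = 0.130 and 0.295), and without L1 replicate 5 or L3 replicate 2 (limma adjusted p = 0.0535 and 0.0511). The other 14 lower genes had fitted means between -1.26 and -0.69, with a positive value in at least 1 lysate each.

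Between the stages the number of receptors called varied, and the counts were read against the background of each stage. In Egg, 18 receptors (11.4%) were higher and 3 lower, beside 10.4% and 11.8% of everything tested. In L1, 26 (16.5%) were higher, beside 13.1%. No receptor was lower in L1 by limma (0 of 158), beside a background of 9.83%. At unadjusted p under 0.05, 6 of 158 were lower in L1, beside 2227 of 15732. In L2, 11 (6.96%) were higher and 5 lower, beside 6.26% and 9.99%. In L3, 25 (15.8%) were higher and 4 lower, beside 8.99% and 12.1%. In L4, 22 (13.9%) were higher and 1 lower, beside 8.21% and 11.2%. Under this scaling the share called higher was near the background in Egg and L2 and above it in L1, L3 and L4, while the share called lower was below the background at all 5 stages. Leaving out 1 lysate at a time gave up to 2 lower receptors in L1 (2 without L3 replicate 1 or L4 replicate 1).

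**Figure D4:**
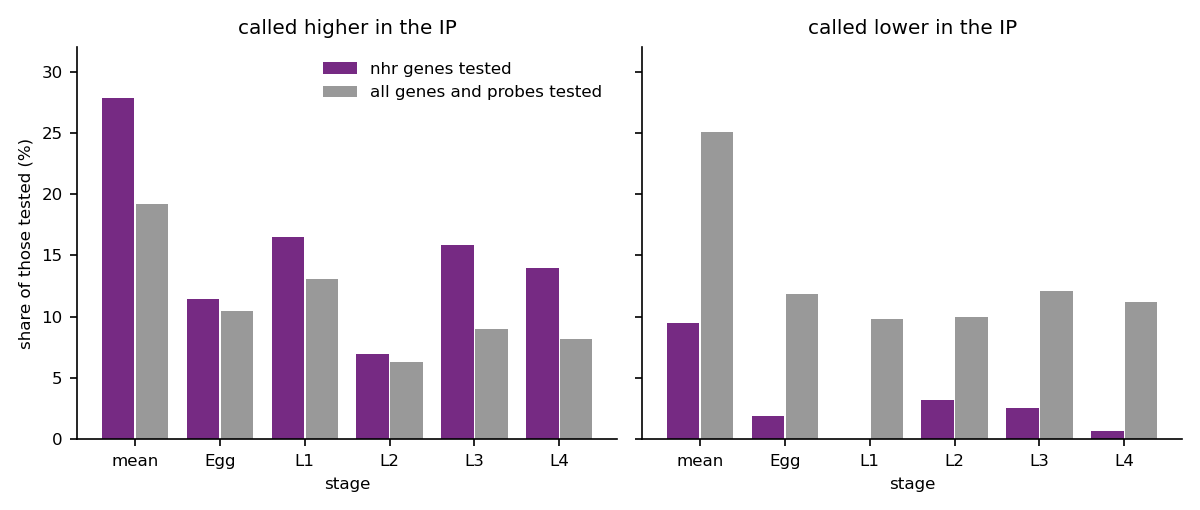
Share (%) of the 158 tested receptor genes (purple, left) and of all 15732 genes and probes tested (grey, right) called higher or lower in the IP, for the mean of the 5 stages and each stage. Receptors lie at 27.8% higher over the mean, beside 19.2%, and at 9.49% lower, beside 25.1%.

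The stage counts rested on few lysates. L2 had 7 receptors called without replicate 1, 10 without replicate 2, 8 without replicate 3, and 26 without the 2 dimmest IPs, against 16 with every lysate. L3 had 19 without its replicate 2, against 29, and L4 had 15 without its replicate 1, against 23. Higher calls alone were 5 in L2 without replicate 1 and 6 without replicate 3. In L4 they were 12 without replicate 1 and 13 without replicate 10. Dropping 1 of 3 lysates also cut the receptors tested, since both others then needed values. From 158 they fell to 133, 139 and 126 without L2 replicates 1, 2 and 3. They fell to 134 and 117 without L4 replicates 1 and 10. Stage calls over everything tested are not given for these fits, so no background stands beside these counts. Scaling moved the split in L1 and L2. Of the receptor calls in L1, 26 of 26 were higher, and 31 of 36 with the values as deposited, 27 of 31 after loess within lysates. Over everything tested the L1 calls were higher in 2055 of 3602, in 2239 of 4296 as deposited and in 2217 of 4198 after loess. Among the receptor calls in L2, 11 of 16 were higher, and 27 of 28 as deposited, 19 of 23 after loess. The L2 background moved as well, to 1773 higher of 15732 as deposited and 1547 after loess, against 985 as reported. With the values as deposited the receptor share called higher in L2, 27 of 158, thus lay above that of everything tested.

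The receptors called higher at each of the 5 stages were nhr-13, nhr-19, nhr-20, nhr-28, nhr-62 and nhr-181. That is 6 of 158, beside 3.04% of everything tested. Another 7 were higher at 4 stages, namely nhr-6, nhr-91, nhr-116, nhr-120, nhr-138, nhr-163 and nhr-172, beside 2.36% of everything tested. nhr-97 was lower at 3 stages, and each of 10 other receptors was lower at 1 stage. In total 118 of the 158 were higher at no stage, beside 12664 of 15732 (80.5%) of everything tested.

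Genes near the top of a single stage had thin support. In L3 the largest calls were nhr-140 at 3.74 ± 1.01 and nhr-126 at 3.52 ± 1.04 (limma adjusted p = 0.0153 and 0.0230), each from 2 lysates of 4. nhr-140 read 3.67 and 3.13 in them. nhr-126 read 5.69 and 0.92, and lay between -1.09 and 1.51 in the lysates of the other stages. After nhr-19 and nhr-20, the largest call in L1 was nhr-204 at 2.98 ± 0.81 (limma adjusted p = 0.0111; 0.0676 without replicate 10 and 0.0537 without replicate 11). In L4 nhr-116 and nhr-163 led with 4.23 ± 0.62 and 4.09 ± 0.52, where the nhr-163 input was not well above background and the IP was at least 5.74-fold higher.

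Besides nhr-41 in Egg and nhr-10 in L2, 8 receptors were called lower at 1 stage. nhr-228 in Egg was not well above background in any IP and was at least 2.01-fold lower (limma adjusted p = 0.0238), as a bound from the lowest signal above background. nhr-266 in L2 was not well above background in the IP either, and no fold is given for it. In L3 nhr-109 had -3.12 ± 0.84 from the lysate values -6.10, -3.20 and -0.41. nhr-171 and nhr-195 had -1.78 ± 0.42 and -1.51 ± 0.49 in L3. In L2 nhr-119 had -2.23 ± 0.69, and nhr-180 had -1.95 ± 0.66, a call made in 12 of 32 other settings. In L4 nhr-244 had -2.28 ± 0.54 from -2.62, -3.49 and -0.92. The calls of nhr-228, nhr-109, nhr-195, nhr-119, nhr-180 and nhr-244 were lost without a single lysate of their own stage, and nhr-266 had both values in 2 L2 lysates. By limma adjusted p, nhr-228 stood at 0.266 without Egg replicate 2 and 0.0967 without Egg replicate 4. nhr-109 stood at 0.159 without L3 replicate 1 and 0.120 without L3 replicate 2. nhr-195 stood at 0.188 without L3 replicate 1, where the value was -0.91, and at 0.0578 without L3 replicate 2. nhr-119 stood at 0.353 without L2 replicate 1 and 0.0566 without L2 replicate 3, nhr-180 at 0.177 and 0.254 without these, and nhr-244 at 0.0591 without L4 replicate 3.

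The ratio of IP to input was then compared between stages, with the difference itself tested. By limma 0 of the 158 receptors were called in any consecutive comparison or in the F test over the 5 stages. At unadjusted p under 0.05 there were 8 for L1 against Egg, 15 for L2 against L1, 18 for L3 against L2, 14 for L4 against L3 and 17 in the F test. Over everything tested, 2171, 1248, 917, 1077 and 2426 of 15732 reached that unadjusted threshold, in the same order. The background of adjusted calls was 2.39%, 0.089%, 0% and 0% in the 4 consecutive comparisons and 2.68% in the F test. Few genes of any kind were thus called. Other settings called between 0 and 5 receptors in the F test.

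The lowest F test value was that of nhr-10 (limma adjusted p = 0.0990). Its difference was -1.54, -2.25 and -1.77 in L2, against 0.77, 0.89, 0.55 and 0.67 in L1, and the 2 stages did not overlap. The change of -2.60 ± 0.62 had a limma adjusted p of 0.230. nhr-244 followed (limma adjusted p = 0.126), with -3.49 to -0.92 in L4 and -0.33 to 1.80 in Egg. Next were nhr-78 (0.165), nhr-227 (0.167), nhr-13 (0.174), nhr-43 (0.180), nhr-62 (0.192) and nhr-116 (0.208), by the same adjusted p. These values do not show that the ratio was constant, since the design has 3 or 4 lysates a stage.

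Total RNA was compared between stages in the 18 inputs. In L1 against Egg, 8 of the 158 receptors rose and 6 fell, 5.06% and 3.80%, beside a background of 11.1% and 11.5%. In L2 against L1, 2 rose and 1 fell, beside 1.81% and 0.21%. In L3 against L2 and in L4 against L3, limma called 0 receptors, beside 0% and 0.877% of everything tested. At unadjusted p under 0.05 these comparisons had 8 and 6 of the 158 receptors, beside 797 and 1220 of 15732. Over the 5 stages 15 of the 158 differed by the F test (9.49%), beside 25% of everything tested. Of the 158, 119 were dimmer than the median of everything tested, and total RNA calls were not counted by brightness. In whole animals, fewer cells of a type and less RNA per cell cannot be told apart.

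**Figure D5:**
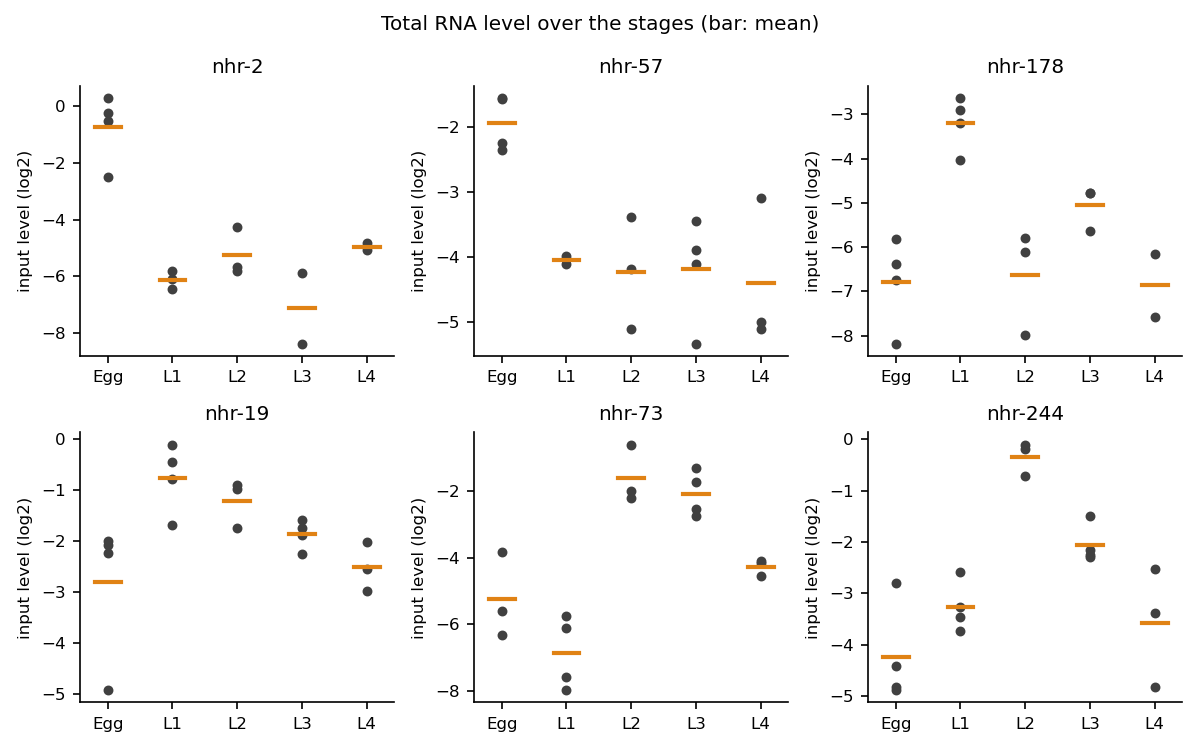
Input level (log2) of 6 receptor mRNAs at each stage, with a point per lysate and a bar at the mean. nhr-2 and nhr-57 are highest in Egg, nhr-178 and nhr-19 in L1, and nhr-73 and nhr-244 in L2.

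The total RNA level of nhr-2 was high in Egg. Its inputs read -6.08, -6.44 and -5.82 in L1, with 1 value missing, against -0.24, -0.50, -2.50 and 0.29 in Egg. No L1 input was well above background, which puts L1 at least 23.3-fold lower (limma adjusted p = 0.000256). The summed embryonic markers (10 genes, linear scale) lay between 10.3 and 10.9 in L1 inputs, against 12.2 to 16 in Egg inputs, and their part in the result was not tested. The IP of nhr-2 was well above background in 4 of 4 Egg lysates and 0 of the L1 lysates with both values.

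Other receptors that were lower in L1 than in Egg included the hypoxia gene nhr-57, at -4.10, -4.03, -3.99 and -4.03 in L1 inputs, against -1.57, -1.56, -2.36 and -2.25 in Egg inputs. The change was -2.14 ± 0.56 (limma adjusted p = 0.00925), and the stages did not overlap. nhr-169, nhr-59 and nhr-11 changed by -2.55 ± 0.62, -2.16 ± 0.62 and -2.61 ± 0.80 (limma adjusted p = 0.00600, 0.0168 and 0.0246). nhr-11 overlapped between the stages. nhr-59 and nhr-11 were no longer called without Egg replicate 2 (limma adjusted p = 0.0728 and 0.185) or L1 replicate 10 (0.0527 and 0.0629), nor was nhr-11 without Egg replicate 4 (0.0612) or L1 replicate 11 (0.0625). nhr-152 changed by -2.02 ± 0.53.

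nhr-178 was high in L1. Its inputs read -2.91, -2.64, -3.20 and -4.03 in L1, against -5.82, -8.18, -6.75 and -6.38 in Egg, where none was well above background. L1 was at least 4.81-fold higher than Egg (limma adjusted p = 0.00107). The L2 inputs, at -5.79, -6.10 and -7.99, were again not well above background and lay at least 4.36-fold below L1 (limma adjusted p = 0.0190; 0.0764, 0.0540 and 0.111 without L1 replicate 5, L1 replicate 10 or L2 replicate 3). Its IPs read -1.69, 0.48, -0.64 and -0.27 in L1, against -6.65, -6.38 and -5.07 in Egg, so the IP moved the same way as the input.

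nhr-19, the gene with the largest IP difference, also rose in total RNA. It read -0.78, -0.11, -0.44 and -1.69 in L1 inputs, against -4.93, -2.0, -2.24 and -2.08 in Egg inputs. The change was 2.06 ± 0.56 (limma adjusted p = 0.0133; 0.0628 without L1 replicate 5 and 0.0505 without L1 replicate 10), while its IP minus input difference was 3.80 ± 0.33 in L1 and 3.71 ± 0.35 in Egg. nhr-114 read -0.30, -0.15, -0.25 and -0.84 in L1 inputs, against -4.02, -2.62, -6.27 and -2.48 in Egg inputs. The change was 3.38 ± 1.16 (limma adjusted p = 0.0432) and was called in 12 of 26 other settings. nhr-210 was not well above background in Egg and at least 1.34-fold higher in L1 (limma adjusted p = 0.0223). nhr-125, nhr-180, nhr-195 and nhr-254 rose by 1.45 to 2.04.

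nhr-73 and nhr-244 rose in L2. nhr-73 read -2.19, -1.99 and -0.60 in L2 inputs, against -7.98, -5.76, -6.10 and -7.59 in L1 inputs. The change was 5.19 ± 0.70 (limma adjusted p = 0.000382), and its L3 and L4 inputs lay between -2.74 and -1.31 and between -4.54 and -4.11. nhr-244 read -0.72, -0.20 and -0.11 in L2 inputs, against -3.26, -2.59, -3.46 and -3.73 in L1 inputs, a change of 2.91 ± 0.58 (limma adjusted p = 0.0101; 0.0709 and 0.0584 without L2 replicate 2 or 3). The L3 values of nhr-244 ranged from -2.29 to -1.50 and the L4 values from -4.81 to -2.53. The F test over the stages had its lowest adjusted p-values for nhr-73, nhr-2, nhr-244, nhr-152, nhr-178, nhr-163, nhr-91 and nhr-169.

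Leaving out a lysate gave fewer calls in total RNA in some fits and more in others. The lowest counts follow. L1 against Egg had 7 receptors called without Egg replicate 2 or without L1 replicate 10, against 14 with every lysate. L2 against L1 had 1 without L4 replicate 10, where 117 receptors were tested, against 3 of 158.

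Receptor genes sit in clusters, and 35 pairs of tested receptors are next to each other among protein-coding genes in the RefSeq annotation of assembly WBcel235. The median absolute difference between the fitted IP values of such neighbours was 1.07, beside 0.84 over all pairs of tested receptors. Both genes were called higher in 5 of the 35 pairs. Of these, 4 form an unbroken run of nhr-161, nhr-163, nhr-139, nhr-140 and nhr-162, with differences of 1.15, 2.76, 1.60, 2.25 and 1.94. The run was singled out after its values were seen. The fifth pair is nhr-56 and nhr-128, at 1.53 and 1.54. Neighbours also went opposite ways, such as nhr-172 at 1.40 beside nhr-171 at -0.80, and nhr-178 at 1.68 beside nhr-177 at -1.21. Whether a probe also binds mRNA of a related neighbour was not tested.

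The nuclear receptors fax-1 and unc-55, which carry other names and act in neurons, were not called at -0.54 ± 0.31 and -0.47 ± 0.33. Of 6 tested genes for ligand synthesis, lipid carriers and coregulators, limma called 4 lower in the IP and 0 higher. The background was 25.1% lower and 19.2% higher. At unadjusted p under 0.05, 0 of the 6 were higher, beside 3466 of 15732. lbp-5, a lipid carrier that acts with NHR-49, had -1.51 ± 0.13 and was lower in 18 of 18 lysates (limma adjusted p = 5.27e-09). strm-1, a methyltransferase that limits the hormone dafachronic acid, had -0.93 ± 0.33. cdk-8, a Mediator kinase, and emb-8, a cytochrome P450 reductase, had -0.51 ± 0.19 and -0.33 ± 0.09. The other two, daf-36 and hsd-1 of hormone synthesis, were not called, at -0.15 ± 0.30 and -0.38 ± 0.37, and were higher in the IP in 10 of 18 and 7 of 16 lysates.

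Among 6 metabolic genes known as targets of NHR-49, NHR-80, NHR-10 or NHR-68, 1 was higher and 3 were lower, beside the same background. acs-2, an acyl-CoA synthetase gene that NHR-49 switches on, was higher by 0.86 ± 0.27 (limma adjusted p = 0.0140). hphd-1 of the propionate pathway had -1.56 ± 0.19 and was lower in 18 of 18 lysates (limma adjusted p = 1.23e-06). fat-6, a desaturase gene, and ech-1.1 had -0.75 ± 0.19 and -1.0 ± 0.38. The desaturase genes fat-5 and fat-7 were not called, at 0.28 ± 0.29 and -0.42 ± 0.30. For scale, 69 of 71 ribosomal protein genes were lower, with a median of -2.60.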

How the data were processed

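The deposited values are intensity on a linear scale, with background subtracted and column means of 0.975 to 1.13. Each sample is 1 dye channel (Cy3 or Cy5) of a spotted 2-colour oligonucleotide array, with RNA amplified once, per the labels' protocols. The scanner and the scaling are not given in the sources used here.

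From the deposited intensity, values not above 0, between 5.75% and 20.3% of a sample's spots, were set to missing, log2 was taken, and the 36 columns were quantile normalized. Probes of a gene were averaged. Gene names come from the platform annotation. 12061 named genes and other unnamed probes, 15732 in all, were tested. limma 3.58.1 (R 4.3.3) was fitted to IP minus input per lysate (stage and dye, 12 residual and 7.46 prior degrees of freedom) and separately to the inputs (5.61 prior). Benjamini-Hochberg adjustment ran over everything tested, with a threshold of 0.05. Stages were cultured and harvested independently, per the labels. The fits were checked on simulated data, with 100 of 15732 genes and probes changed at each size. Of IP differences of 1 and 2 (log2), 42% and 80% were recovered. For L1 against Egg, 2% and 24% were recovered in the ratio and 1% and 25% in total RNA. False calls were 5.43%, 7.14% and 3.70% of the calls, in the same order. The absence of a call between stages thus says little about changes of these sizes. The number of arrays limits the precision. Tables and figures were made with Python 3.11.15, numpy 2.4.6, pandas 2.3.3 and matplotlib 3.10.9.

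IP and input of a lysate pair by design, and their deviations correlated (r 0.287 to 0.621 in 18 of 18). The members and gene lists were chosen with earlier results of these data known. Genes are named by rule: the 10 highest and 10 lowest called receptors with 1 sign in every lysate, the 3 highest and lowest per stage, the 4 highest and lowest per stage contrast, the 8 lowest F test values, and the members of 3 role lists. Marker lists served to check the stage labels. Summed embryonic markers lay between 10.9 and 12.7 in L2 inputs, which overlaps the 12.2 to 16 of Egg inputs. Summed yolk markers (6 genes, linear scale) lay between 1.26 and 33.4 in L4 inputs. In the inputs of the other stages they lay between 0.225 and 1.14. The alternatives are other scalings, an offset, probe choice, filters, the dye and title terms, no trend, blocks, 18 fits without a lysate each and, added after seeing the data, 1 fit without the 2 dimmest IPs.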

Additional observations from a re-analysis of the deposited data

Results flagged for a closer look

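In each group of 4 lysates, the distance of the highest or lowest lysate to its nearest neighbour was compared with the range of the group. This covered the IP minus input differences of the receptors named for the mean of the stages or for a stage, their median, and the inputs of the receptors named for total RNA. Of the 55 groups examined, 4 held a lysate that stood apart (Dixon's critical value 0.829), and chance flags about 1 in 20. nhr-20 had a difference of 4.21 in L1 replicate 2, against 3.14 to 3.29 in the other L1 lysates, and 3.08 in L3 replicate 5, against 2.52 to 2.60 in the other L3 lysates. nhr-195 had -3.47 in L3 replicate 1, against -0.97 to -0.84 in the other L3 lysates. The input of nhr-19 read -4.93 in Egg replicate 1, against -2.24 to -2.0 in the other Egg lysates. Without that Egg lysate its change in L1 was 1.38 (limma adjusted p = 0.0238), and without L3 replicate 1 nhr-195 had -0.91 in L3 (limma adjusted p = 0.188).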

How the results depend on the processing

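For the mean of the 5 stages, higher receptors (as reported 44) were 67 with values as deposited, 27 among genes with a value in all samples and 25 in lysates spelled tot, and 35 to 47 without a lysate each. Lower receptors (as reported 15) were 6 as deposited, 23 with an offset of 0.1, 7 among complete genes, 6 with title spelling as a term, 4 in lysates spelled tot, and 8 to 18 without a lysate each. The median (as reported 0.24) was 0.55 as deposited, 0.08 with the offset, and 0.19 to 0.37 without a lysate each. All 251 receptors were tested with the offset, and 56 were higher, beside 3697 of 22149 and a median of 0.02 over everything tested. For Egg (as reported 21) the count was 9 in lysates spelled tot, and 14 to 25 without a lysate each. For L1 (as reported 26) it was 40 with the offset and 2 in lysates spelled tot (18 to 34). For L2 (as reported 16) it was 28 as deposited, 25 with the offset, 9 in lysates spelled tot and 26 without the 2 dimmest IPs (7 to 21). For L3 (as reported 29) it was 19 among complete genes and 14 in lysates spelled tot (19 to 33). For L4 (as reported 23) it was 14 with columns centred and 7 in lysates spelled tot (15 to 26). For the ratio, L1 against Egg (as reported 0) had 2 with the offset and 1 with no dye term, L2 against L1 (as reported 0) had 1 without the 2 dimmest IPs, and any stage difference (as reported 0) had 2 as deposited, 5 with the offset and 1 without the 2 dimmest IPs (0 to 1 without a lysate each, 1 without L3 replicate 5 or L4 replicate 3). For total RNA, L1 against Egg (as reported 14) had 8 among complete genes, 9 with title spelling as a term and 0 in lysates spelled tot (7 to 17). L2 against L1 (as reported 3) had 7 with the offset, 5 with the brightest probe and 0 in lysates spelled tot (1 to 4). L4 against L3 (as reported 0) had 1 with the offset. Any stage difference (as reported 15) had 25 with the offset, 9 among complete genes and 3 in lysates spelled tot (12 to 22). Fewer genes or lysates enter the complete-gene and tot settings and the fits without a lysate by construction. For the others the cause was not tested.

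Numbers in the titles are shared across stages, and same-numbered inputs of 2 stages correlated at -0.238 to 0.477 (7 of 19 over 0.1). Differently numbered inputs were not compared, so these values cannot decide whether the number links stages. With that number as a replicate block, the mean had 27 higher and 5 lower receptors, Egg 7, L1 5, L3 19, total RNA L1 against Egg 4, L2 against L1 1 and any stage 8. With no replicate block, IP and input unpaired, the mean had 4 lower receptors, Egg 10, L1 14, L2 3, L3 13, L4 10 and the ratio of L1 against Egg 1. The receptor median of the 5-stage mean was above 0 in every setting run, while that of L2 alone was -0.01 as reported and -0.03 with columns centred.

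The dim signal of most receptors and the number of lysates limit the size of single-stage values, and spots with no value above 0 are missing.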
